A study of Mus musculus with 10 samples.

Results

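Serinc3, Pkig, Ada, Ywhab, Tomm34, Stk4, Sdc4, Sys1, Pigt and Acot8 lie on mouse chromosome 2 around Slpi, the gene that is disrupted in Slpi-/- mice. These 10 genes, of 19937 genes with a probe set that maps to 1 gene symbol, were chosen as chromosome 2 neighbours of the disrupted gene, some of them because their signal was lower in Slpi-/- cells in every setting. The difference between Slpi-/- and B6 cells is therefore given as a description for them, with no p-value and nothing read from any call, whereas their responses to LPS and to IgE with antigen and their levels in different cell types, which played no part in the choice, were tested. All 10 had 1 probe set each, and all 10 passed the filter on low signal on at least 1 array.

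The study compared allergic effector cells grown from the bone marrow (BM) of Slpi-/- and wild-type (B6) mice, both labelled as strain C57BL6/N, on Affymetrix GeneChip Mouse Gene 1.0 ST arrays. Slpi encodes secretory leukoprotease inhibitor, an inhibitor of serine proteases. For each genotype there was 1 array of BM-derived basophils given IgE for 1 h and then its antigen for 12 h (BMBs with IgE) and 1 of BMBs without stimulus, 1 array of mast cells, and 1 array of BM-derived eosinophils given LPS for 3 h (BMEos with LPS) and 1 of BMEos without stimulus, which makes 10 arrays and 5 settings. BMBs and mast cells were grown with IL-3, and BMEos with stem cell factor and Flt3 ligand followed by IL-5. Slpi-/- mice lack the gene in the germline, and neither the number of backcrosses of the line nor the number of mice behind an array is given in the sources used here. Each difference between a Slpi-/- and a B6 array has no replicate check, and the p-values given for stimuli and cell types measure only the spread between the genotype pairs and settings.

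A gene is disrupted in embryonic stem cells, and the mice made from them are then crossed to the strain of interest. Genes close to the disrupted gene are rarely separated from it by recombination, so mutant and wild-type animals can differ in the alleles of linked genes as well as in the disrupted gene itself. The genes around Slpi do different work. Serinc3 encodes a multipass membrane protein of the serine incorporator family, Sdc4 a heparan sulfate proteoglycan of the cell surface, Pigt a subunit of the transamidase that attaches proteins to glycosylphosphatidylinositol (GPI) anchors, and Sys1 a Golgi membrane protein that recruits the GTPase ARFRP1. Pkig encodes an inhibitor of cAMP-dependent protein kinase (PKA), Ywhab a 14-3-3 adaptor that binds phosphorylated proteins, and Stk4 the Hippo pathway kinase MST1. Ada encodes adenosine deaminase, which turns adenosine into inosine, Acot8 a peroxisomal acyl-CoA thioesterase, and Tomm34 a cochaperone of mitochondrial protein import.

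Promoter windows were matched for 9 of the 10 genes from the RefSeq table of build GRCm38.p6, and Ywhab is named only. The 250 bases before the start are shown for the genes whose signal lay on the same side of B6 in every setting, first Serinc3, Pkig and Ada, which were lower, then Stk4 and Sys1, which were higher. For Pkig, whose table entry has 3 starts, the first is shown. Capitals mark motif matches on either strand. The GC box, which factors of the SP family bind, was searched as GGGCGG. The motif of the NF-Y factor was searched as CCAAT. The core bound by ETS factors was searched as CGGAAG. A search for the TATA box, TATAAA, found 0 matches in these windows.
Serinc3, chr2:163645144-163645393, minus strand: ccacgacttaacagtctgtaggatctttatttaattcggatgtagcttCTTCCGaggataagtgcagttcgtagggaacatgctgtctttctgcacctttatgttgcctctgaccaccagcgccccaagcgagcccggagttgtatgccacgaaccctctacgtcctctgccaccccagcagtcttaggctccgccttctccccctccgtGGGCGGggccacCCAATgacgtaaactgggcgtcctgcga
Pkig, chr2:163658136-163658385, plus strand: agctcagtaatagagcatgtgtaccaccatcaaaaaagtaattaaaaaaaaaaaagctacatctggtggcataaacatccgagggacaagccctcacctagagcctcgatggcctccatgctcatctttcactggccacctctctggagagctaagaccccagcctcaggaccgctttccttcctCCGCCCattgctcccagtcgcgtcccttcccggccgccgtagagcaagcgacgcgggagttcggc
Ada, chr2:163750240-163750489, minus strand: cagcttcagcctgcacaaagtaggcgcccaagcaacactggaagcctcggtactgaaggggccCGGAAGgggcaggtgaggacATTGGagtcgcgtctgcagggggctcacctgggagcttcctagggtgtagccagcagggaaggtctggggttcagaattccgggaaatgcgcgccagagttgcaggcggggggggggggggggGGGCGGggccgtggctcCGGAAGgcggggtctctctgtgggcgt
Stk4, chr2:164073888-164074137, plus strand: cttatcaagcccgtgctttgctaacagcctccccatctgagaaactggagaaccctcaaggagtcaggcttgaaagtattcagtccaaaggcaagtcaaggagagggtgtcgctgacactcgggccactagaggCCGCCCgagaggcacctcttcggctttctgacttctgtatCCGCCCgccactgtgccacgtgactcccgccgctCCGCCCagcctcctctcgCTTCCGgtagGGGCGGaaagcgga
Sys1, chr2:164460721-164460970, plus strand: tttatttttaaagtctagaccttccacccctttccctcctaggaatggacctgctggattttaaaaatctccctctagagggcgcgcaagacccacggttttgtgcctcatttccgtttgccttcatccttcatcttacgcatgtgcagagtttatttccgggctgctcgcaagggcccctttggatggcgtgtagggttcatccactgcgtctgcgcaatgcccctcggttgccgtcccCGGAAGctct

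In these windows the Serinc3 promoter held 1 GC box, 1 CCAAT box and 1 ETS core. Pkig had 1 GC box and neither a CCAAT box nor an ETS core, and Ada had 1 GC box, 1 CCAAT box and 2 ETS cores. Stk4 had 4 GC boxes and 1 ETS core, and Sys1 had only 1 ETS core. Among the genes not shown, Tomm34 and Sdc4 held 3 and 4 GC boxes, and Acot8 held 3 CCAAT boxes. No matches overlapped. Of all 32851 windows of this length in the table, 32.7% held a GC box, 33.8% a CCAAT box, 13.6% an ETS core and 12.4% a TATA box. CpG dinucleotides numbered 13 to 19 in the 9 windows, against a median of 6 over all windows. The share of all windows with fewer CpG was 68.4% for 13 (Pkig and Sys1) and 80.2% for 19 (Sdc4 and Pigt). The only motif found in all 3 windows of the lower genes, the GC box, was also found in those of Stk4, Tomm34, Sdc4 and Acot8. A match in such a window is a description of its letters only.

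Across the 5 settings, Serinc3, Pkig and Ada gave a lower signal in Slpi-/- cells than in B6 cells in every setting, with mean log2 differences of -1.30, -0.84 and -0.53. Sys1 and Stk4 were higher in every setting by smaller amounts, 0.34 and 0.12 on average, and the other 5 genes lay on both sides of B6. These counts depended on the scaling for the genes with small differences, since Stk4 was lower in 1 setting and Acot8 in 5 of 5 after median centring, and Pigt was lower in 0 settings after quantile normalization. Of all 13571 genes above background on at least 1 array, 529 (3.9%) were lower in 5 of 5 settings and 405 (2.98%) were higher in 5 of 5, beside 3 and 2 of these 10 genes. Since the genes were chosen on this contrast, nothing is read from that comparison. Serinc3 had the 2nd lowest and Pkig the 3rd lowest mean difference of the 13571 genes, after Slpi itself, and Ada ranked 14th. The next after Pkig was Tshz3 on chromosome 7, at -0.84. Signals are log2 values of probe sets summarised by robust multi-array averaging (RMA), so that a difference of 1 is a doubling, and background is the 95th percentile of 1027 olfactory receptor genes on the same array, between 5.56 and 5.78.

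**Figure D1:**
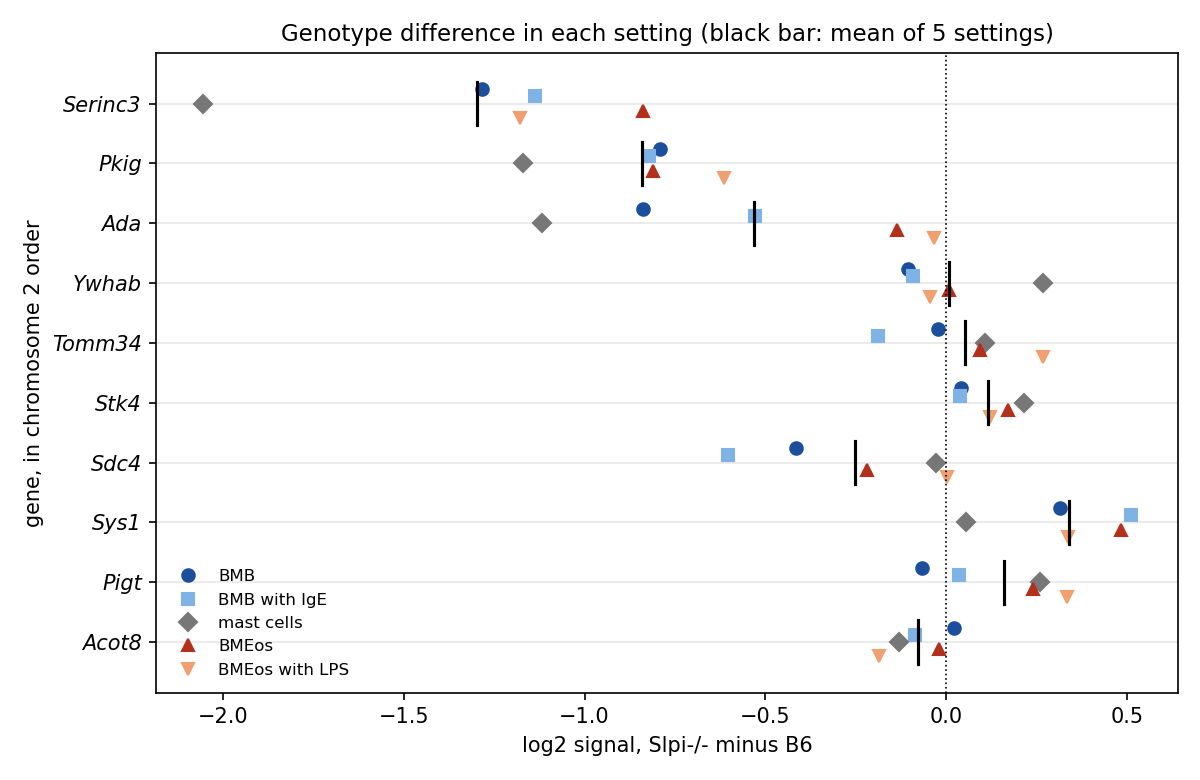
Differences in log2 RMA signal, Slpi-/- minus B6, for the 10 genes in chromosome order (rows), with 1 symbol for each of the 5 settings and a black bar at their mean. All 5 symbols of Serinc3 (-2.06 to -0.84), Pkig (-1.17 to -0.61) and Ada (-1.12 to -0.03) lie below 0, those of Stk4 and Sys1 lie above 0, and the other genes spread around 0.

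Serinc3, the first of the genes with roles in membranes, had the largest difference. In BMBs its signal was 11.61 in Slpi-/- cells and 12.89 in B6 cells, and in BMBs with IgE it was 11.27 in Slpi-/- cells and 12.40 in B6 cells. In mast cells it was 11.04 in Slpi-/- cells and 13.09 in B6 cells. In BMEos it was 12.01 in Slpi-/- cells and 12.85 in B6 cells, and with LPS 11.49 in Slpi-/- cells and 12.67 in B6 cells. The highest Slpi-/- array lay below the lowest B6 array, so the groups did not overlap. Linear signal was 1.79-fold (BMEos) to 4.16-fold (mast cells) lower in Slpi-/- cells, and 2.46-fold lower on average over the log2 values (mean difference -1.30 ± 0.45, SD over 5 settings). Among all 13571 genes the Serinc3 difference ranked between 2nd lowest, in mast cells, and 38th lowest, in BMBs. B6 cells kept the gene within 12.40 to 13.09 in all settings, and Slpi-/- cells within 11.04 to 12.01.

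The other 3 membrane genes differed less. Sys1 gave 8.09 in Slpi-/- BMBs and 7.77 in B6 BMBs, and with IgE 8.15 in Slpi-/- BMBs and 7.64 in B6 BMBs. In mast cells Sys1 was 7.65 in Slpi-/- cells and 7.59 in B6 cells, the smallest of its differences. BMEos showed 8.52 in Slpi-/- cells and 8.03 in B6 cells, and with LPS 8.61 in Slpi-/- cells and 8.28 in B6 cells. Sys1 was thus higher in each of the 5 settings, by 1.04-fold to 1.43-fold, but the arrays overlapped, at 7.65 to 8.61 in Slpi-/- cells and 7.59 to 8.28 in B6 cells (mean difference 0.34 ± 0.18, 64th highest of 13571 genes). Sdc4 was lower in Slpi-/- BMBs, at 6.83 against 7.25 in B6 BMBs, and in Slpi-/- BMBs with IgE, at 7.12 against 7.72 in B6 BMBs with IgE. Its differences in the other settings were -0.22 in BMEos, -0.03 in mast cells and 0.00 in BMEos with LPS, so that its mean of -0.25 ± 0.26 rested on the BMBs. Pigt was higher in Slpi-/- cells in mast cells, BMEos and BMEos with LPS, by 0.26, 0.24 and 0.34, and differed by -0.07 in BMBs and 0.03 in BMBs with IgE.

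**Figure D2:**
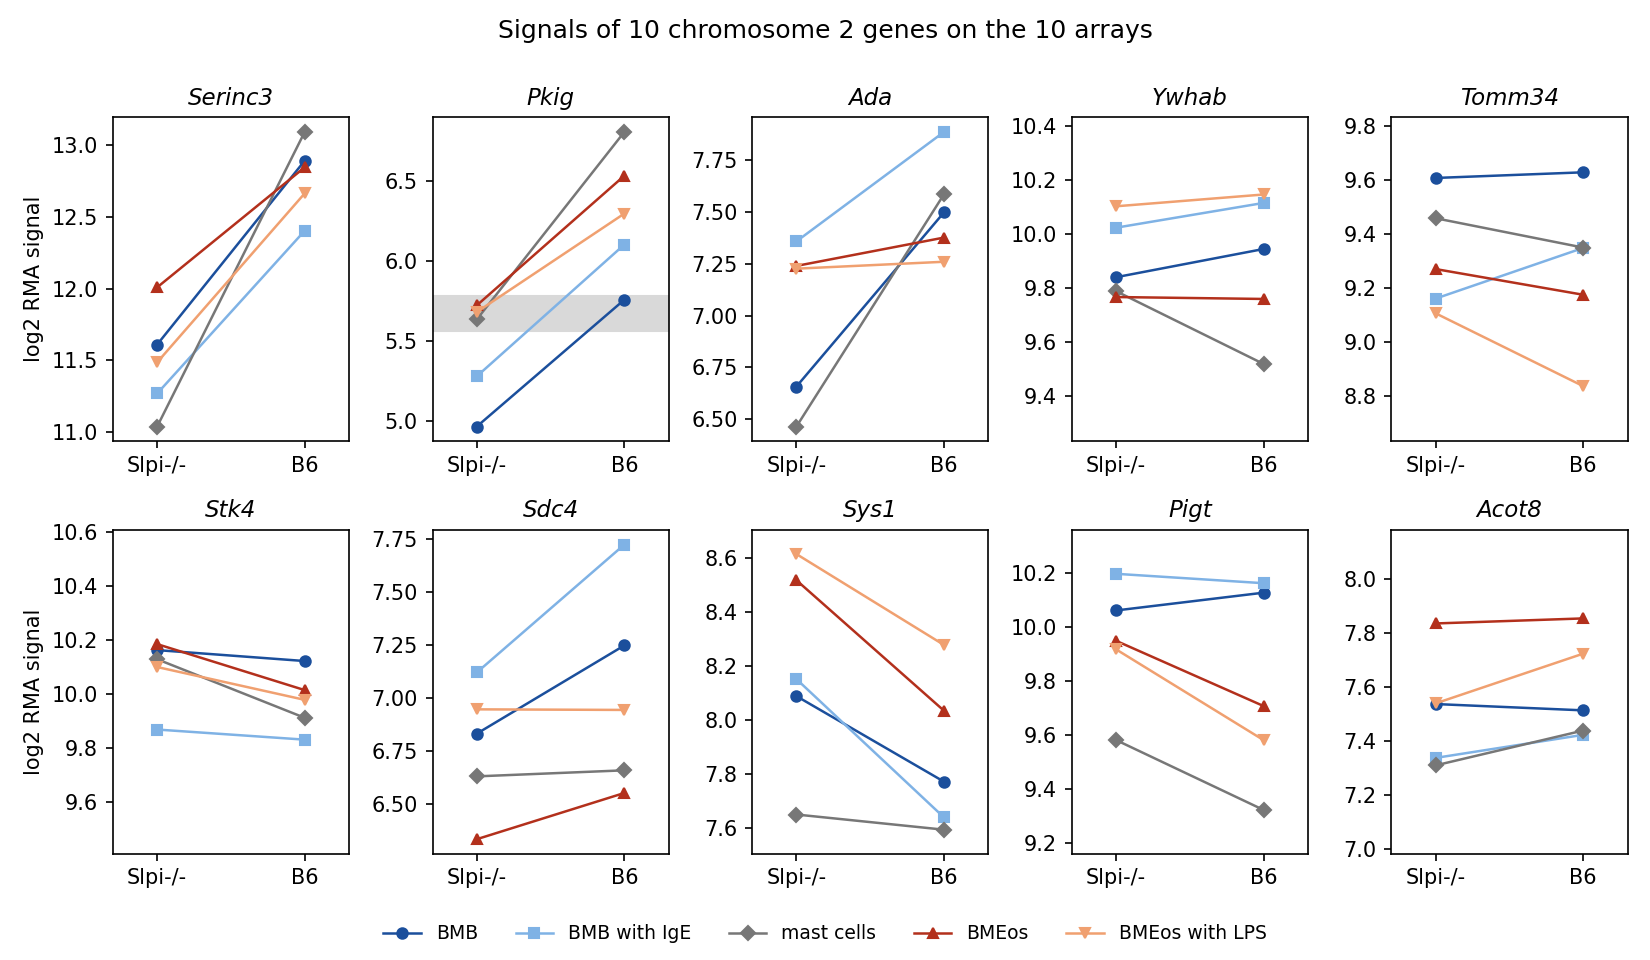
Log2 RMA signal of each of the 10 genes on the 10 arrays, with Slpi-/- on the left and B6 on the right of each panel, a line joining the arrays of 1 setting, and a grey band at the range of background over the arrays (5.56 to 5.78). Every line slopes up towards B6 for Serinc3, Pkig and Ada. For Pkig the Slpi-/- points reach into or below the background band.

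Among the genes of kinase signalling, Pkig was lower in every Slpi-/- culture. Its signal in BMBs was 4.96 in Slpi-/- cells and 5.76 in B6 cells, and in BMBs with IgE 5.28 in Slpi-/- cells and 6.10 in B6 cells. In mast cells it was 5.63 in Slpi-/- cells and 6.80 in B6 cells. In BMEos it was 5.72 in Slpi-/- cells and 6.53 in B6 cells, and with LPS 5.68 in Slpi-/- cells and 6.29 in B6 cells. The genotypes did not overlap (4.96 to 5.72 in Slpi-/- cells, 5.76 to 6.80 in B6 cells). Pkig stood above background on 2 of 5 Slpi-/- arrays and on 5 of 5 B6 arrays, so its fold, 1.53 to 2.25 lower with a mean of 1.79, is taken against signals at background. The mean log2 difference was -0.84 ± 0.20. Non-overlap with Slpi-/- lower was seen in 18 of 13571 genes (0.133%), Serinc3 and Pkig included, and these 2 had the lowest mean differences of the 18. Non-overlap with Slpi-/- higher was seen in 2 genes (0.0147%), none of them among the 10 described here.

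Stk4 was higher in Slpi-/- cells in 5 of 5 settings, but by only 0.04 in BMBs, 0.04 in BMBs with IgE, 0.12 in BMEos with LPS, 0.17 in BMEos and 0.22 in mast cells (mean 0.12 ± 0.08), and 1 of these differences turned lower when each array was centred on its median. Ywhab was 9.79 in Slpi-/- mast cells and 9.52 in B6 mast cells, and differed by -0.10 to 0.01 in the other settings (mean 0.01 ± 0.15). Neither Stk4 nor Ywhab separated the genotypes.

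Ada was the third gene that was lower in every setting, and its difference varied between cell types, which was not tested. It was largest in mast cells, at 6.47 in Slpi-/- cells and 7.58 in B6 cells, which is 2.17-fold lower and the 9th lowest difference of 13571 genes. In BMBs it was 6.66 in Slpi-/- cells and 7.50 in B6 cells, and with IgE 7.36 in Slpi-/- cells and 7.88 in B6 cells. In BMEos, by contrast, Ada was 7.24 in Slpi-/- cells and 7.38 in B6 cells, and with LPS 7.23 in Slpi-/- cells and 7.26 in B6 cells, which ranked 5673rd from the lowest. The IL-3 cultures (BMBs and mast cells) therefore gave differences of -1.12 to -0.53, and the BMEos -0.14 and -0.03 (mean over settings -0.53 ± 0.46). The sets of arrays overlapped. Acot8 and Tomm34 lay close to B6, with differences of -0.18 to 0.02 and of -0.19 to 0.27, and means of -0.08 ± 0.08 and 0.05 ± 0.17.

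The position of the lower genes was then set out along the chromosome, in units of measured genes from Slpi in the RefSeq gene order. Serinc3, Pkig and Ada did not adjoin Slpi. They lay 22, 20 and 19 genes before it, with 1 measured gene between Serinc3 and Pkig, and 18 measured genes, 9 of them above background on at least 1 array, separated Ada from Slpi. In that interval Ywhab (15 genes before), Tomm34 (13 before) and Stk4 (12 before) averaged 0.01, 0.05 and 0.12, and Pabpc1l, a poly(A)-binding protein gene, was the single gene lower in 5 of 5 settings, by 0.19 on average. Pabpc1l lay near background and stood above it on 3 of 5 Slpi-/- arrays and 5 of 5 B6 arrays. Sdc4, Sys1, Pigt and Acot8 lay 3, 4, 7 and 26 genes after Slpi.

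On the far side of Serinc3, Ttpal, a gene of the tocopherol transfer protein family 23 genes before Slpi, was also lower in every setting. Its differences were -0.59 in BMBs, -0.18 in BMBs with IgE, -0.69 in mast cells, -0.18 in BMEos and -0.53 in BMEos with LPS (mean -0.43, SE 0.09). Its adjusted p was 0.71 (limma over 5 settings), and its unadjusted p was 0.0010. The transcript 0610039K10Rik, which the annotation places over Serinc3, was above background on 0 of 5 Slpi-/- arrays and 3 of 5 B6 arrays, so that it was tested only because of its level in B6 cells. Its mean difference was -0.36 (adjusted p = 0.91), and in BMBs neither array was above background (5.46 in Slpi-/- cells, 5.15 in B6 cells). The next tested genes on either side lay closer to 0. Hnf4a averaged 0.09 and its antisense gene Hnf4aos -0.13 (5 of 5 settings lower, but above background on only 1 array of each genotype) before Ttpal, and Ccn5 averaged -0.04 (3 of 5 settings lower) after Ada. Whether the probe set of Serinc3 holds probes in sequence that it shares with 0610039K10Rik is not given in the sources used here. Pkig, Sys1 and Acot8 also overlap annotated genes (Gm16316 for Pkig, Trp53tg5 and Dbndd2 for Sys1, Snx21 and Zswim3 for Acot8).

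**Figure D3:**
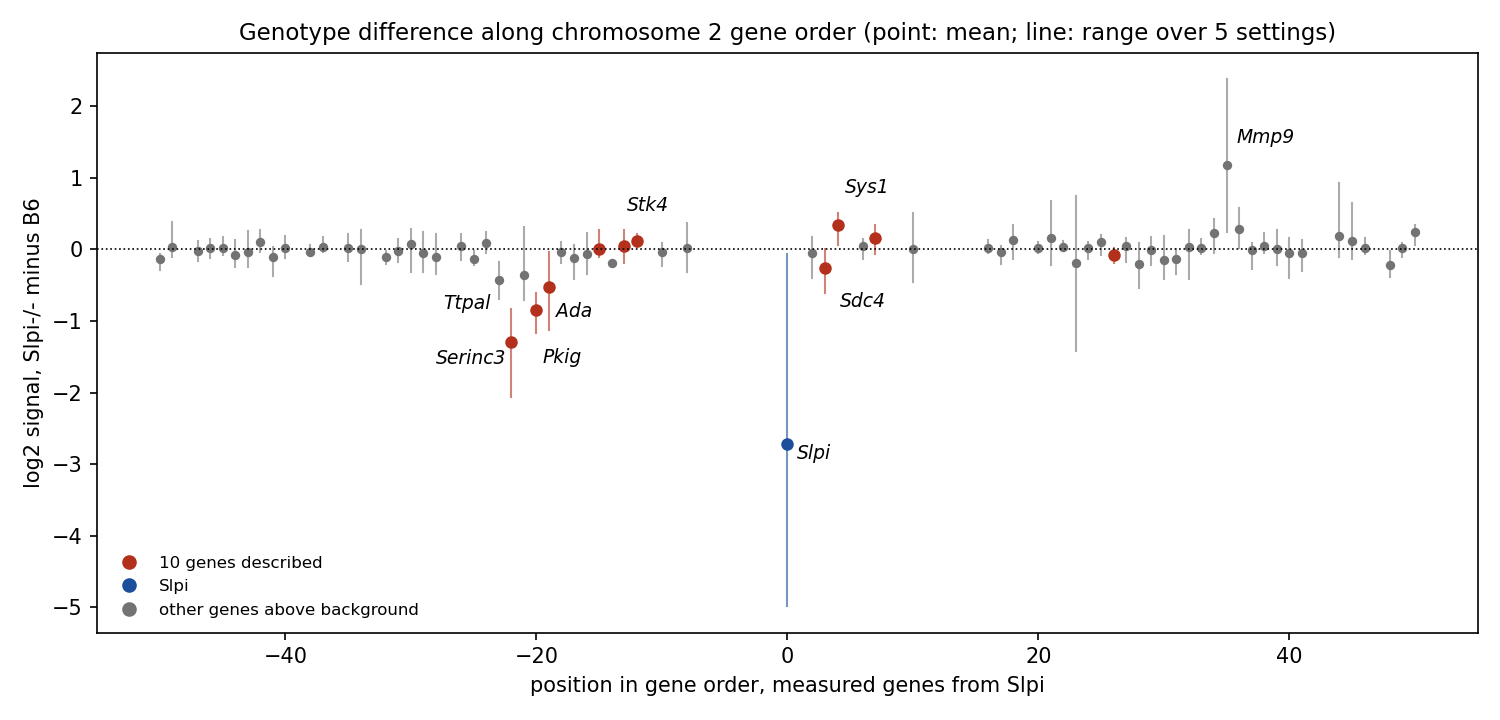
Mean difference in log2 RMA signal, Slpi-/- minus B6, over 5 settings (points) and its range (lines), for tested genes within 50 measured genes of Slpi, plotted by position in gene order. The lower genes Ttpal, Serinc3, Pkig and Ada sit 19 to 23 genes before Slpi, the genes between them and Slpi lie near 0, and Mmp9, 35 genes after Slpi, is the highest.

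Within 50 measured genes on either side of Slpi, 73 of 100 genes were tested. Of them, 9 (12.3%) were lower in 5 of 5 settings and 5 (6.85%) were higher. Without the 10 genes described here the counts were 6 (9.52%) and 3 (4.76%) of 63, and the median difference was 0.00. On the rest of chromosome 2, 53 (5.18%) were lower and 26 (2.54%) higher of 1023, and on the other chromosomes 465 (3.74%) and 374 (3.01%) of 12435. By side, and again without the 10 genes, 5 of 30 tested genes before Slpi and 1 of 33 after it (Eya2) were lower in 5 of 5 settings, which was not tested. Among the 20 measured genes nearest to Slpi, 10 on each side, 8 were tested and 0 were lower in 5 of 5, beside 3.9% of all genes. These were Sdc4, Sys1 and Pigt, the protease inhibitor genes Wfdc5 (mean -0.03), Wfdc15a (0.02) and Wfdc6a (0.00), and Rbpjl (-0.04) and Dbndd2 (0.05). Wfdc6a and Dbndd2 stood above background on only 1 of 10 arrays and Wfdc5 on 6, so their means say little about a change. No test of the 63 other genes passed (limma, adjusted over all 13571 genes, 0 called or 0.0%), while 722 of all genes (5.32%) had an unadjusted p under 0.05. Slpi itself, with a mean difference of -2.72, did not pass this fit either (adjusted p = 0.85, limma). A gene that did not pass is therefore not read as unchanged.

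Slpi and Mmp9 mark the ends of the range. Slpi was 6.55 in Slpi-/- BMBs and 11.42 in B6 BMBs, and with IgE 6.35 in Slpi-/- BMBs and 11.33 in B6 BMBs. BMEos had 6.41 in Slpi-/- cells and 8.08 in B6 cells, and with LPS 5.93 in Slpi-/- cells and 7.96 in B6 cells. In mast cells it was 6.47 in Slpi-/- cells and 6.53 in B6 cells. B6 mast cells thus lay within the range of the Slpi-/- arrays, 5.93 to 6.55. Mmp9, which encodes a secreted metalloproteinase and lies 35 measured genes after Slpi, had the highest mean difference of all 13571 genes, 1.19 (adjusted p = 0.89, limma). It was 8.33 in Slpi-/- BMEos and 5.95 in B6 BMEos. In mast cells both arrays were below background, at 5.59 in Slpi-/- cells and 5.35 in B6 cells. The other differences were 1.86 in BMEos with LPS, 1.18 in BMBs with IgE and 0.28 in BMBs. Mmp9 was thus higher in 5 of 5 settings but by unlike amounts (SD 0.95). It stood above background on 4 of 5 Slpi-/- arrays and 3 of 5 B6 arrays. The authors also reported higher Mmp9 transcript in Slpi-/- BMEos by quantitative RT-PCR, and less of it after an Slpi plasmid was put into these cells. By immunoblot they found more MMP-9 protein in Slpi-/- BMEos, and no change of it in Slpi-/- BMBs or BM cells.

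Whether the genes respond to stimulation was tested with limma over all 13571 genes. After LPS, 3926 genes (28.9%) changed in BMEos, 1724 of them higher (12.7%) and 2202 lower (16.2%), or 1203 higher and 2756 lower after each array was centred on its median. Of the 10 genes, 2 rose, 0 fell and 8 did not pass. Sdc4 was 6.95 with LPS and 6.33 without in Slpi-/- BMEos, and 6.94 with LPS and 6.55 without in B6 BMEos, a rise of 0.50 (SE 0.11, adjusted p = 0.017). Ywhab rose by 0.36 (SE 0.09, adjusted p = 0.029), by 0.34 in Slpi-/- and 0.39 in B6 cells, and this call was lost after median centring (0.066) and without the signal filter (0.056). Serinc3 differed by -0.35 (adjusted p = 0.065), -0.52 in Slpi-/- and -0.18 in B6 cells, and passed after median centring (0.037) and with a variance trend (0.025). The sex-linked genes also differed between these arrays. Xist was 9.66 and 9.72 in Slpi-/- and B6 BMEos with LPS, against 4.90 and 4.15 in Slpi-/- and B6 BMEos without it, and Eif2s3y was 3.54 and 3.22 with LPS against 8.45 and 8.20 without. The sex of the cells and LPS therefore cannot be told apart in this comparison. Within each pair of Slpi-/- and B6 arrays these genes matched.

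IgE with antigen changed 3091 genes (22.8%) in BMBs, 1655 higher (12.2%) and 1436 lower (10.6%). Of the 10 genes, 2 rose, 2 fell and 6 did not pass. Ada rose by 0.54 (SE 0.11, adjusted p = 0.017, limma), by 0.70 in Slpi-/- BMBs and 0.39 in B6 BMBs. Sdc4 rose by 0.38 (SE 0.11, adjusted p = 0.047), by 0.29 in Slpi-/- and 0.48 in B6 cells. Serinc3 fell by 0.42 on the log2 scale (adjusted p = 0.047), with differences of -0.34 in Slpi-/- and -0.49 in B6 cells. Tomm34 fell by 0.36 (adjusted p = 0.048), with -0.45 in Slpi-/- and -0.28 in B6 cells. The last 3 calls lie close to the threshold and were lost without the signal filter (0.088, 0.086 and 0.091). Sdc4 and Tomm34 also lost theirs with the BMB arrays alone (0.060 and 0.068), and Sdc4 after median centring (0.051) and quantile normalization (0.059). Pkig differed by 0.33 and Stk4 by -0.29 without passing (adjusted p = 0.058 and 0.066), each in the same direction in both genotypes, although neither Slpi-/- BMB array was above background for Pkig. The mean of 4 platelet markers also differed, at 10.45 with IgE and 10.07 without in Slpi-/- BMBs, against 8.84 with IgE and 10.14 without in B6 BMBs, and its part in these values was not tested.

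**Figure D4:**
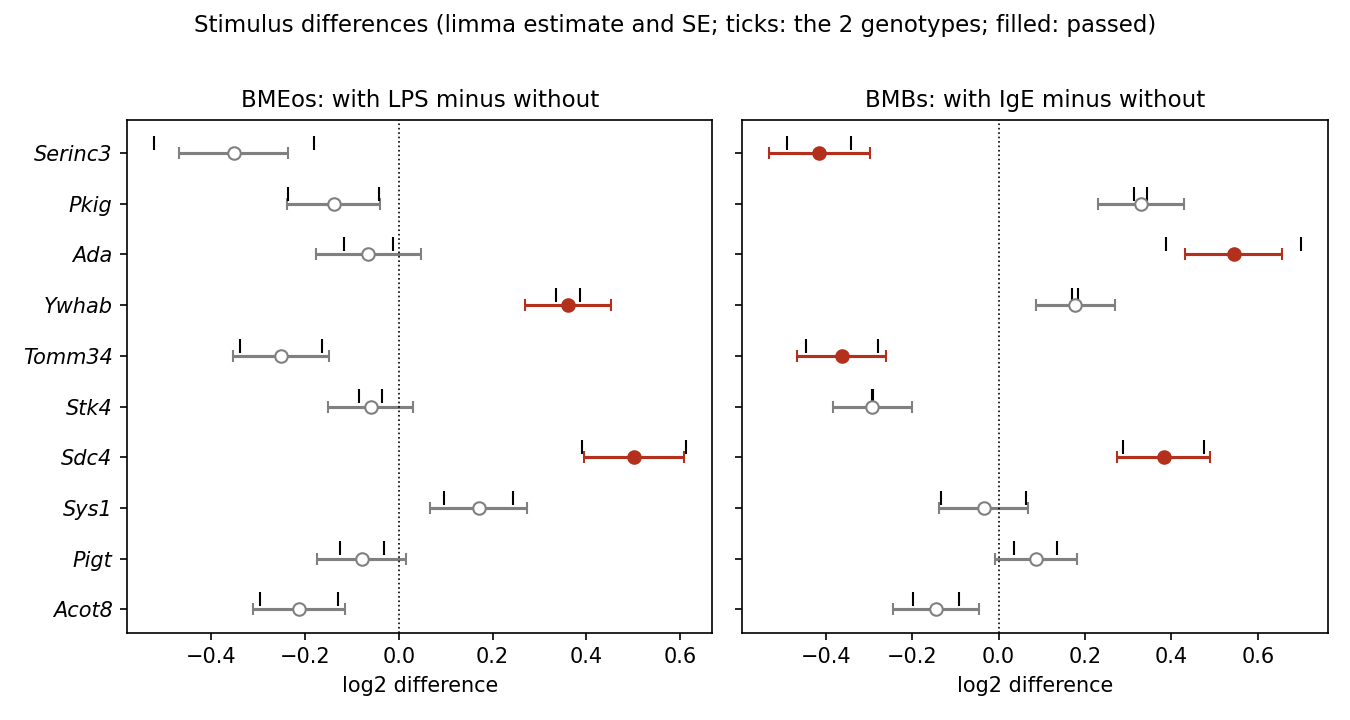
Log2 differences of the 10 genes after LPS in BMEos (left) and after IgE with antigen in BMBs (right), as the limma estimate with its SE (points and bars), with 1 tick for each genotype and filled points where the adjusted p was under 0.05. Sdc4 is filled on the right side of 0 in both panels, Ywhab for LPS, and Ada for IgE, while Serinc3 and Tomm34 are filled on the left side of 0 for IgE.

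The IgE response of Serinc3 ran the same way in both genotypes and was smaller than its difference between genotypes in BMBs (-1.28 without and -1.14 with IgE). For Ada the 2 values in BMBs were of like size, since IgE moved it by 0.54 while the genotypes differed by -0.84 without and -0.53 with IgE. Slpi-/- BMBs with IgE (7.36) thereby stood near B6 BMBs without it (7.50). Neither pair of effects was tested against the other, and both genes were chosen on the difference between genotypes.

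Across cell types, the 6 unstimulated arrays were compared. Prg2, an eosinophil granule protein gene, was 12.02 and 12.20 in Slpi-/- and B6 BMEos, Mcpt8, a basophil protease gene, was 12.72 and 12.96 in Slpi-/- and B6 BMBs, and Cma1, a mast cell chymase gene, was 12.19 and 11.99 in Slpi-/- and B6 mast cells, each at or near background in the other cells. The lists of 5 markers separated BMBs and mast cells less cleanly. Of 5 mast cell markers, 4 were above background in BMBs of each genotype (means 8.10 in Slpi-/- and 8.08 in B6, beside 11.34 and 10.98 in mast cells). Of 5 basophil markers, 4 were above it in mast cells of each genotype (means 7.83 in Slpi-/- and 8.03 in B6, beside 11.10 and 11.14 in BMBs). Of 5 eosinophil markers, 2 were above it in either cell type. In bulk RNA, fewer cells of a type and less RNA per cell cannot be told apart. BMEos and mast cells differed in 6633 genes (48.9%), 3152 higher (23.2%) and 3481 lower (25.7%) in BMEos, and 3 of the 10 genes were higher and 0 lower. Sys1 was 0.65 higher in BMEos (SE 0.12, adjusted p = 0.0043, limma), Acot8 0.47 higher (SE 0.10, 0.0066) and Pigt 0.38 higher (SE 0.12, 0.034). Pigt lost the call after quantile normalization (0.070) and without the signal filter (0.060).

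BMBs and mast cells differed in 4750 genes (35.0%), 2446 higher (18.0%) and 2304 lower (17.0%) in BMBs. Pkig was lower in BMBs (difference -0.86, SE 0.12, adjusted p = 0.0018), with differences of -0.67 in Slpi-/- cells, where neither array was above background, and -1.05 in B6 cells. Pigt was 0.64 higher in BMBs (SE 0.12, 0.0054) and Sdc4 0.40 higher (SE 0.12, 0.041). BMEos and BMBs differed in 5167 genes (38.1%), 2404 higher (17.7%) and 2763 lower (20.4%) in BMEos. Here Pkig was 0.77 higher in BMEos (SE 0.12, 0.0030), with Slpi-/- BMBs below background, and Acot8 0.32 higher (SE 0.10, 0.041), while Sdc4 (difference -0.60, SE 0.12, 0.0074) and Tomm34 (difference -0.40, SE 0.10, 0.018) were lower. Sdc4 against mast cells lost its call without the signal filter and in the fit of all 10 arrays (0.073 and 0.069), and Acot8 after quantile normalization and without the filter (0.070 and 0.081). The remaining calls of these 2 comparisons held in each limma alternative.

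**Figure D5:**
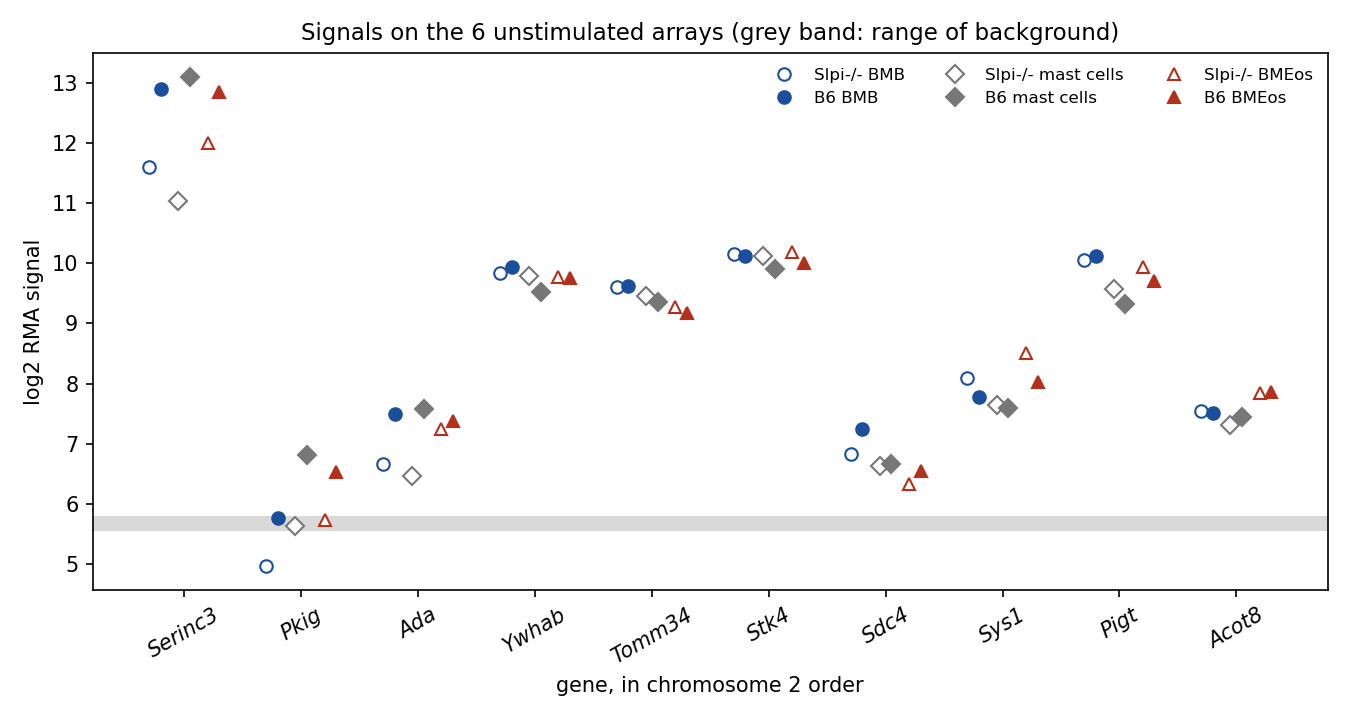
Log2 RMA signal of the 10 genes on the 6 unstimulated arrays, open symbols for Slpi-/- and filled for B6, with BMBs, mast cells and BMEos from left to right within a gene and a grey band at background. Sys1 is highest in BMEos in both genotypes and Pkig lowest in BMBs in B6 cells, while Serinc3 separates by genotype in each cell type.

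The order of cell types was set out for the genes that were lower in Slpi-/- cells. Serinc3 in Slpi-/- cells ran 12.01 in BMEos, 11.61 in BMBs and 11.04 in mast cells, whereas in B6 cells mast cells were highest at 13.09, followed by BMBs at 12.89 and BMEos at 12.85. Its BMEos minus mast cell difference was accordingly 0.97 in Slpi-/- and -0.25 in B6 cells, and the comparison did not pass (adjusted p = 0.29). Ada ran the same way, with BMEos minus mast cell differences of 0.77 in Slpi-/- and -0.21 in B6 cells (adjusted p = 0.32). For Pkig only the BMEos array stood above background in Slpi-/- cells, so no order is read between Slpi-/- BMBs and mast cells, and B6 cells had 5.76 (BMBs), 6.53 (BMEos) and 6.80 (mast cells). Stk4 and Ywhab passed none of the 3 cell type comparisons, with differences of at most 0.24 in size.

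The genes that work with these 10 were described through 12 lists of 125 genes, of which 118 were measured and 107 tested. For genotype 0 of the 107 were called, 3 had an unadjusted p under 0.05, 2 (1.87%) were lower in 5 of 5 settings (Tomm7 and Lats2) and 4 (3.74%) were higher (Adal, Pigv, Pgap1 and Naa35). The other serine incorporators gave mean differences of -0.02 (Serinc1), 0.13 (Serinc2), -0.01 (Serinc4, also on chromosome 2) and -0.09 (Serinc5), beside -1.30 for Serinc3. Among PKA inhibitors, Pkib averaged 0.06 and Pkia was below background, and the 5 measured PKA subunits lay between 0.00 and 0.03. Around adenosine, Adk, the kinase that returns adenosine to AMP, averaged -0.06, and Pnp, which acts on the inosine that Ada makes, -0.08. The transamidase partners of Pigt lay between -0.10 (Pigk) and -0.02 (Pigu), and Pgap1, which remodels GPI anchors, averaged 0.35 (adjusted p = 0.57). None of these paralogues and partners had a mean difference near that of Serinc3 or Pkig. Those 2 genes were chosen on this contrast, so nothing is read from the gap.

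After IgE, 19 (17.8%) of the 107 list genes rose and 11 (10.3%) fell, beside 12.2% and 10.6% of all genes, and after LPS 5 (4.67%) rose and 20 (18.7%) fell, beside 12.7% and 16.2% of all genes. The lists differed in how many of their genes passed, which was not tested. IgE called 0 of 9 genes of the ARFRP1 and SYS1 Golgi list, 0 of 6 thioesterases, 1 of 13 Hippo pathway genes and 1 of 7 syndecans and glypicans, and LPS called 0 of 7 syndecans and glypicans and 0 of 4 transamidase genes. By contrast, IgE raised 6 of 11 tested genes of mitochondrial import and lowered 0, Timm17a by 0.84 (adjusted p = 0.0025), while Tomm34 fell. Of the 11 adenosine and purine salvage genes, 4 rose and 3 fell, among them Nt5e, the ecto-enzyme that makes adenosine, higher by 2.18 (adjusted p = 0.0010), and Adk, which fell by 1.13 (adjusted p = 0.0017), beside the rise of Ada. In the GPI transamidase 3 of 4 partners rose, Pigk by 0.63 (adjusted p = 0.011), and Pigt itself differed by 0.09 without passing. The 14-3-3 family had 2 of 6 genes higher after LPS and 2 of 6 after IgE, Ywhag in both (0.46 and 0.54). With LPS, 4 of 8 peroxisomal beta-oxidation genes and 3 of 6 acyl-CoA thioesterases were lower and 0 of either higher. Acot8 differed by -0.21 (adjusted p = 0.15, limma). The sex of the cells and LPS cannot be told apart in any of these LPS counts either.

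Over the 10 arrays, the genes whose level ran most like Serinc3 were Crybg3 (Pearson r = 0.86), Mrpl48 (0.86) and Pdlim4 (0.82), all on other chromosomes. For Pkig they were Hs3st6 (0.95), Mir666 (0.89) and Mir670 (0.87), the last on chromosome 2, and for Ada Timm13 (0.85), Prps1 (0.83) and Malsu1 (0.82). The 10 arrays share genotype and cell type, and no p is given. All of these genes were lower in 5 of 5 settings, with mean differences of -0.45 (Crybg3) to -0.12 (Timm13), less than the gene they follow. They were picked for likeness, over the same arrays, to genes that were lower in every setting. Their own direction is therefore not read as a result.

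Over the series, 55.6% to 60.4% of named genes stood above background on an array, and array medians were 5.85 to 5.94. Of 32 measured cell type markers, 2 (Epx and Adgre1) were lower and 2 (Siglecf and Il5ra) higher in Slpi-/- cells in 5 of 5 settings. The shares of all genes were 3.9% and 2.98%. Epx, Siglecf and Il5ra are among the 5 eosinophil markers, of which only 1 or 2 stood above background on a BMB or mast cell array. The mean of 5 neutrophil markers was 4.92 in Slpi-/- BMBs and 5.87 in B6 BMBs, with 1 and 3 of them above background, and between 4.90 and 7.07 in Slpi-/- cells and 4.99 and 7.11 in B6 cells over all settings. The part of other cells in the differences of the 10 genes was not tested.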

How the data were processed

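The authors hybridised RNA of each culture to Mouse Gene 1.0 ST arrays, summarised probes by RMA in the Bioconductor package affy, and deposited log2 signal, and these values entered every step unaltered. Of 34760 probe sets, 21640 carry 1 gene symbol in the platform annotation, and they name 19937 genes. For a gene with several probe sets the one with the highest mean was used. Genes above the 95th percentile of olfactory receptor genes on at least 1 array were tested (13571). RMA gives no detection call, and the number of arrays limits the precision. Gene order came from the RefSeq table of GRCm38.p6, of which no gene coordinates are given.

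Tests used limma 3.58.1 in R 4.3.3 (lmFit, eBayes) with Benjamini-Hochberg adjustment over all genes tested and a threshold of 0.05. The genotype fit had a block for each of 5 settings (4 residual degrees of freedom). The stimulus fit, on all 10 arrays, set a separate mean for every combination of cell type with genotype and added terms for IgE and for LPS, and the cell type fit of 6 unstimulated arrays had cell type and genotype (2 residual degrees of freedom each). The pairs come from the design. Each fit was also run on simulated data, for genotype, LPS in BMEos and BMEos minus mast cells, and its recovery is not given here. Alternatives were median centring, quantile normalization, other filters, averaging the probe sets of a gene, a variance trend, fewer or more arrays, each setting left out, and the methods' t-test on the same pairs.

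The 10 genes and all lists were chosen with earlier results of these data known. Named besides them are Slpi, Mmp9, tested genes within 10 measured genes of Slpi, up to 5 genes of a list, the 3 genes most like Serinc3, Pkig and Ada, and sex-linked and cell type markers. The rule also names the highest and lowest genes of the genotype fit, of which those on chromosome 2 and Tshz3 are given. Ttpal, Pabpc1l, 0610039K10Rik, Hnf4a, Hnf4aos, Ccn5 and Eya2 were named after their values were seen. Promoter windows are RefSeq sequence. Python 3.11.15, numpy 2.4.6, pandas 2.3.3 and matplotlib 3.10.9 were used.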

Additional observations from a re-analysis of the deposited data

Results flagged for a closer look

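For Tomm34 the difference between Slpi-/- and B6 cells ran in opposite directions in the 2 granulocyte types. It averaged 0.18 in BMEos, where both the stimulated and the unstimulated pair were higher in Slpi-/- cells, and -0.10 in BMBs, where the pairs differed by -0.02 without and -0.19 with IgE. After quantile normalization Tomm34 was lower in only 1 setting, so at most 1 of the 2 BMB pairs was lower there. Dbndd2, 6 measured genes after Slpi, had 0.12 in BMEos and -0.080 in BMBs, but stood above background on 1 of 10 arrays. Whether the cell types differ was not tested for either gene, and each value rests on 2 pairs of arrays.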

How the results depend on the processing

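For genotype, limma called 0 genes, and 1 after the 99th percentile filter or median centring (Pkig), and 2 after quantile normalization or with a variance trend (Pkig and Serinc3). Leaving out each setting in turn gave 0 to 2, the 2 without mast cells (Pkig and Serinc3). These genes were chosen on this contrast, so these calls are not read as results. The mean difference over settings ran, with each setting left out, from -1.41 to -1.11 for Serinc3, -0.90 to -0.76 for Pkig and -0.66 to -0.38 for Ada. Of genes near Slpi, with the 10 genes included, 6 of 31 (19.4%) within 25 genes on either side, 9 of 73 (12.3%) within 50 and 18 of 156 (11.5%) within 100 were lower in 5 of 5 settings, and 2 (6.45%), 5 (6.85%) and 6 (3.85%) were higher. The methods' t-test on the same pairs called 0 genes for LPS, IgE, BMBs against mast cells and BMEos against BMBs, and 1 (Pdcd4) for BMEos against mast cells, with 2460, 1516, 2366, 2492 and 3581 genes at an unadjusted p under 0.05, on 2 pairs each. Of the genes called for LPS, 43.9% were higher, and 30.4% after median centring (1203 higher, 2756 lower), which moved an array by -0.05 to 0.04. Of 350 limma alternatives to the 50 stimulus and cell type tests of the 10 genes, 325 kept direction and side of the threshold, 15 lost the call, 10 gained it and 0 reversed.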
